A study of Mus musculus with 4 samples.

Results

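The unfolded protein response (UPR) and ER-associated degradation (ERAD) genes described here are 34 genes chosen by name, from the sensors of ER stress to the enzymes that fold, inspect and discard secretory proteins. All 34 were among the 28193 genes of the count table, and all 34 had more than 5 counts in every library and entered the test. The libraries hold RNA pulled down with HA-tagged ribosomes from CA1 tissue in which c-Fos-active cells were tagged (fosTRAP-seq). The question was whether ribosome-bound mRNAs of these genes differed between mice that had been sleep deprived again (SD) and mice that had not (NSD). None of the 34 passed edgeR's test with condition as the only term. The values were above 0 for most of them, largest in size for Sdf2l1, Xbp1, Atf4, Ppp1r15b and Ern1, and near 0 for most sensors and degradation genes. Xbp1 and Atf4, which encode transcription factors of the UPR, were called higher in SD once the batch number was a term of the fit. That fit called 2.99% of all genes higher (3.77% of protein-coding genes), against 0.770% (0.952%) without the term.

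Secretory and membrane proteins fold in the endoplasmic reticulum (ER), and an excess of unfolded protein there activates the membrane sensors IRE1 (Ern1), ATF6 and PERK. IRE1 removes an intron from Xbp1 mRNA in the cytosol, ATF6 is released by proteases in the Golgi, and PERK phosphorylates eIF2alpha, which lowers general translation but favours translation of Atf4. The transcription factors produced in this way induce chaperones, disulfide enzymes and the ERAD machinery, which passes misfolded proteins to the proteasome. In the brain, phosphorylation of eIF2alpha has been linked to synaptic plasticity, memory and sleep loss.

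The mice were male C57BL/6J of 3 to 5 months. By the study's methods, CA1 received one AAV with the tamoxifen-dependent recombinase ERT2-Cre-ERT2 under a c-Fos promoter and another with Cre-dependent HA-mRpl22 under EF1a, whereas the sample labels name the genotype cFos-Cre:Ribotag and the dorsal hippocampus. Both groups carried these agents, and both received 4-hydroxytamoxifen at ZT 2 on day 0, during a first sleep deprivation of 5 h, so that the NSD mice had been sleep deprived once as well. On day 7 the SD mice were kept awake for 5 h by gentle handling and the NSD mice were left undisturbed, with tissue collected at ZT 5. Each library is a pool of CA1 from 5 mice, with 2 libraries per group. The labels put NSD 1 and SD 1 in batch 1, and NSD 2 and SD 2 in batch 2. Tagging required virus uptake and an active c-Fos promoter, and did not select a cell type beyond that. In the captured RNA, a change in the number of tagged cells of a type cannot be told apart from a change in RNA per cell. RNA carried over from untagged cells cannot be told apart either, since the series holds no library of RNA from before the pull-down.

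The libraries held 153511673 to 195910205 counts. Summed markers of CA1 and excitatory neurons ran from 6111 to 6674 CPM (a gene's counts relative to the library total, scaled with TMM factors), with Camk2a alone at 4090 to 4379 CPM. Markers of other cells were present too. Astrocyte markers summed to 3670 and 3182 CPM in NSD and 3775 and 3786 CPM in SD, and oligodendrocyte markers to between 1585 and 1918 CPM with overlapping groups. All 8 endothelial markers were lower in SD by their fitted values (summed 46.1 and 66.1 CPM in NSD, 37.4 and 24.4 CPM in SD), and choroid plexus markers summed to 61.8 and 134.9 CPM in NSD and 64.7 and 40.3 CPM in SD. For the endothelial list the median was -0.86 on the log2 scale (SD over NSD), with -0.36 within batch 1 and -1.39 within batch 2. Of these 8 genes edgeR called 0 lower (7 at an unadjusted p under 0.05), edgeR with the batch number as a block 6 and DESeq2 4. All 7 choroid plexus markers tested had fitted values below 0 with a median of -1.25, but the median was 0.67 within batch 1 and -2.44 within batch 2. EdgeR called 1 of them lower, the block 2 and DESeq2 2. Of all genes, 2.33% were called lower by edgeR, 8.47% with the block and 5.79% by DESeq2 (0.540%, 3.29% and 1.79% of protein-coding genes). An unadjusted p under 0.05 was found for 19.1% of all and 14.6% of protein-coding genes. Transcripts of the annotation class TEC took 0.273% and 0.210% of the NSD counts and 0.157% and 0.118% of the SD counts. The part of these differences in the values below was not tested.

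Several UPR promoters are known to carry short elements that read alike from gene to gene, and these were looked for in the promoter windows of RefSeq on build GRCm38.p6 (250 bases before and 50 after a gene's start, 300 in all). Windows were present for 29 of the 34 genes and were missing for Atf6, Ppp1r15b, Hyou1, Manf and Derl1. The ER stress response element was searched on both strands as CCAAT, 9 bases of any kind, then CCACG. It was found in 6 of the 29 windows and in 0.119% of all 32851 windows of the table. The sites are shown because they are what these folding and ERAD genes share in sequence. They are written on the strand of the gene with 5 flanking bases, and the fixed letters are in capitals. CGTGG followed by ATTGG is the same element on the other strand.
Calr: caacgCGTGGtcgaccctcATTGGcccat
Canx: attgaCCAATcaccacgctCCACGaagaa
Creld2: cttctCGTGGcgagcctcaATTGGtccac
Pdia6: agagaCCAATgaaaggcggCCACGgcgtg
Ero1b: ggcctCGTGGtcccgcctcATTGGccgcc
Syvn1: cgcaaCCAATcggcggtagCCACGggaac

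The windows were chr8:84846882-84847181 for Calr, chr11:50325624-50325923 for Canx, chr15:88819396-88819695 for Creld2, chr12:17266339-17266638 for Pdia6, chr13:12565633-12565932 for Ero1b and chr19:6046326-6046625 for Syvn1, with Calr and Canx on the minus strand and the others on the plus strand. Counted from the gene's start, the elements lay between -201 and -183 in Ero1b at one end and between -44 and -26 in Syvn1 at the other. Herpud1 (chr8:94386179-94386478, plus strand) held 2 other elements, shown because this gene had the most uneven values of the set. One is the ER stress response element II, ATTGG, 1 base, then CCACG, which was present in 0.0365% of all windows. The other is the amino acid response element TGATGCAA, here on the opposite strand, which was present in 0.895% of all windows and is the kind of element that ATF4 binds.
Herpud1, element II: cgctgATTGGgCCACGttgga
Herpud1, amino acid response element: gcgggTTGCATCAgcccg
Ppp1r15a, cAMP response element: tccggTGACGTCAgcaca

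The Ppp1r15a site lay from -12 to -5 in chr7:45526219-45526518 on the minus strand, and TGACGTCA was present in 1.79% of all windows. The unfolded protein response element TGACGTGG was in none of the 29 windows and in 0.676% of all windows. No element shown overlaps another. A match is a statement on letters in a window only. The 6 genes with the ER stress response element had log2 fold changes (SD over NSD) of 0.17 (Calr), 0.11 (Canx), 0.23 (Creld2), 0.14 (Pdia6), 0.066 (Ero1b) and 0.059 (Syvn1), and none of them was called.

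Over the 34 genes, 29 had a fitted log2 fold change above 0 and 5 below, with a median of 0.089. This median was 0.16 without NSD 2 and 0.066 without NSD 1. Among all 22338 genes tested 47.2% were above 0 with a median of -0.016, and among the 15551 protein-coding genes 54.2% were above 0 with a median of 0.018. Calls required a fold over 1.2 together with an adjusted p below 0.05. The quasi-likelihood test of edgeR, adjusted by Benjamini-Hochberg over all genes tested, called 0 of the 34 higher and 0 lower in SD, where it called 0.770% of all genes higher and 2.33% lower (0.952% and 0.540% of protein-coding genes). At an unadjusted p under 0.05 there were 8 of the 34 (23.5%), against 19.1% of all and 14.6% of protein-coding genes. With the batch number as a block the same test called 2 higher and 0 lower (background 2.99% higher and 8.47% lower, or 3.77% and 3.29% of protein-coding genes), and DESeq2 called 3 higher and 0 lower (2.99% and 5.79% of all genes, 3.91% and 1.79% of protein-coding genes). The 2 genes called with the block were Xbp1 and Atf4, and DESeq2 called these and Ppp1r15b. Since each group is 2 pools of mice, the p-values measure the spread between these pools.

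For 13 of the 34 genes (38.2%) the SD libraries were both higher than either NSD library, and for 3 both were lower, against 22% and 27.5% of all genes (26.5% and 20.0% of protein-coding genes). Within batches, SD was above NSD in both for 22 genes (64.7%), where 30.8% of all and 36.6% of protein-coding genes were. The median over the 34 was 0.14 in batch 1 and 0.060 in batch 2.

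**Figure D1:**
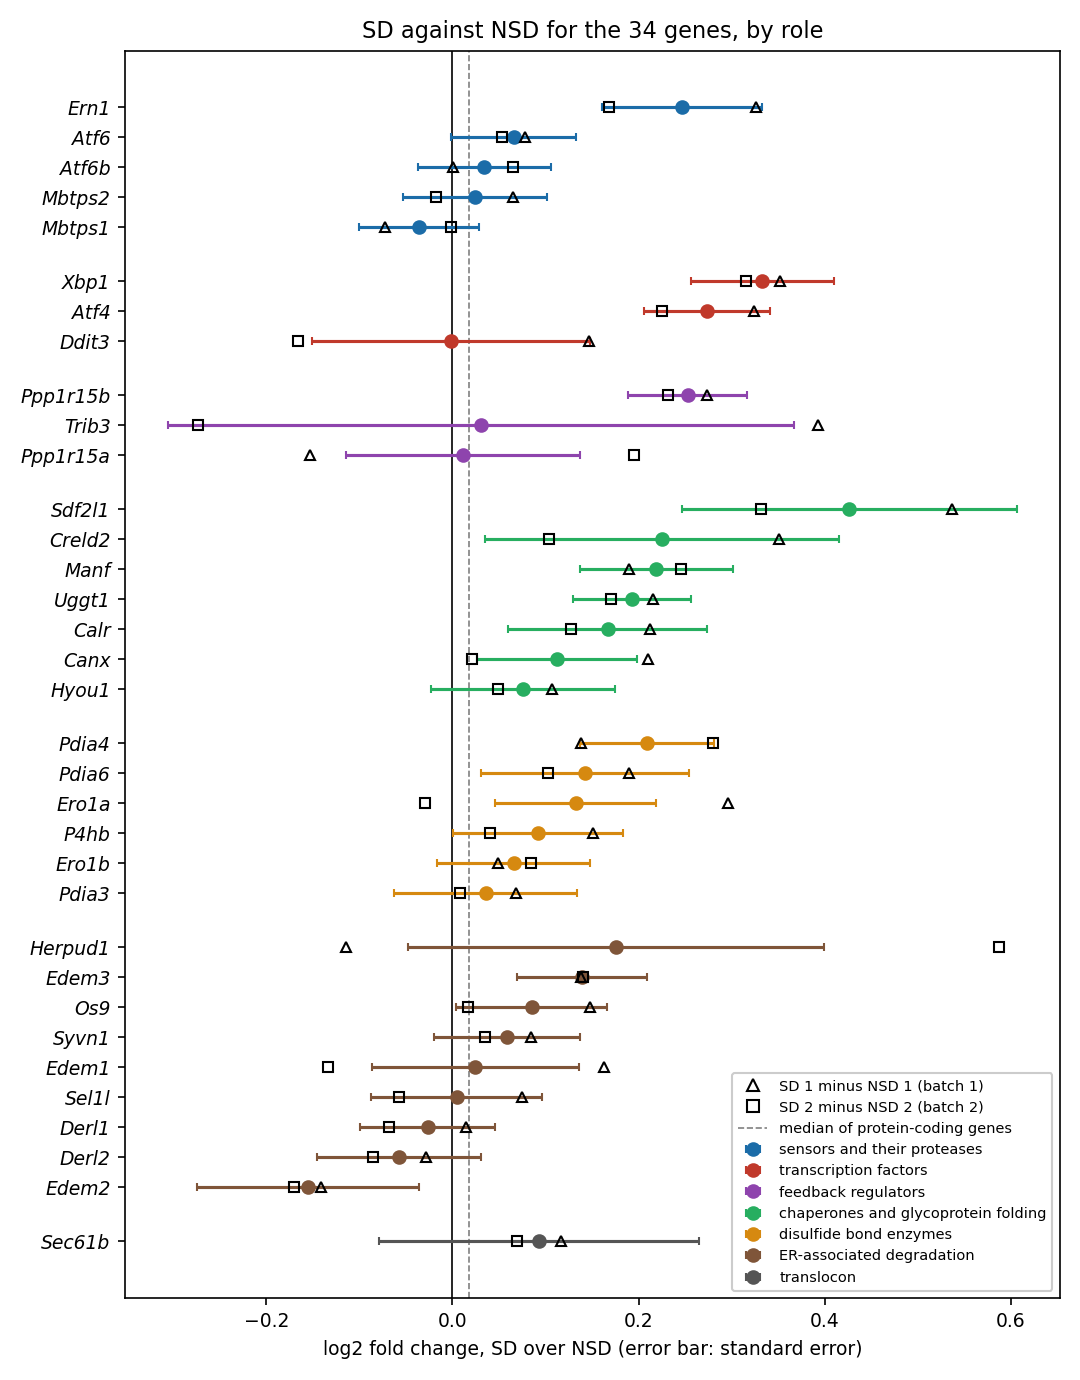
Fitted log2 fold change of SD over NSD for each of the 34 genes, grouped by role (filled points, standard error as bars), with the log2 ratio within batch 1 (triangles) and batch 2 (squares) and the median of protein-coding genes as a dashed line. All 7 chaperone genes and all 6 disulfide enzyme genes lie above 0, Xbp1 and Atf4 lie at 0.33 and 0.27, and the points of the ERAD genes run from -0.16 (Edem2) to 0.18 (Herpud1).

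Among the sensors and the proteases that release them, Ern1 had the largest value and the others were near 0. Of these 5 genes 4 were above 0 (background 54.2% of protein-coding genes), with a median log2 fold change of 0.034. None was called by edgeR, by the block or by DESeq2. Ern1, which encodes the kinase and RNase IRE1 (chr11:106285476-106378678 of GRCm39), measured 15.5 and 16.6 CPM in NSD and 19.5 and 18.7 CPM in SD. Both SD libraries were higher than both NSD libraries. The log2 fold change was 0.25 ± 0.086 (SE, 2 libraries per group), with an adjusted p of 0.159 by edgeR and 0.0559 with the block.

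Atf6, the membrane-bound transcription factor that leaves the ER under stress, measured 109 and 114 CPM in NSD and 115 and 119 CPM in SD. The groups were separate but close, with a log2 fold change of 0.066 ± 0.067 (SE) and an edgeR adjusted p of 0.683. Its paralog Atf6b had a log2 fold change of 0.034, and the site-1 and site-2 proteases Mbtps1 and Mbtps2, which cut ATF6 in the Golgi, had -0.036 and 0.024. The 95% interval for Atf6 reached from -0.088 to 0.22, so these pools leave any change within it possible for Atf6.

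Among the transcription factors, Xbp1 and Atf4 were higher in both SD libraries and Ddit3 was not. Xbp1 (chr11:5470659-5475893 of GRCm39), whose spliced mRNA encodes the active factor, measured 35.4 and 39.0 CPM in NSD and 45.2 and 48.5 CPM in SD. The groups did not overlap, and the ratio was nearly equal in the batches (log2 0.35 and 0.32). The fitted log2 fold change was 0.33 ± 0.077 (SE), a fold of 1.26, with an adjusted p of 0.0583 by edgeR, 0.00249 by edgeR with the block and 0.00342 by DESeq2. Counts per gene do not separate spliced from unspliced Xbp1. Exons of Xbp1 in the annotation GENCODE vM39 overlap those of Ccdc117 on the opposite strand, which had 30.6% of its count, though the canonical transcripts do not overlap.

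Atf4 (chr15:80139385-80141742), the factor made when eIF2alpha is phosphorylated, measured 85.8 and 92.4 CPM in NSD and 107 and 108 CPM in SD. Its groups were separate as well, with log2 ratios of 0.32 in batch 1 and 0.22 in batch 2. The fitted log2 fold change was 0.27 ± 0.068 (SE), a fold of 1.21 and so just past the fold threshold, with an adjusted p of 0.0698 by edgeR, 0.00557 with the block and 0.00305 by DESeq2. Atf4 mRNA bound to ribosomes includes ribosomes on its upstream reading frames, which counts per gene do not separate from those on the coding sequence.

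Ddit3, which encodes the stress factor CHOP and is a target of ATF4, was low, at 5.90 and 5.93 CPM in NSD and 6.54 and 5.29 CPM in SD. The SD libraries lay on either side of the NSD libraries, with log2 ratios of 0.15 in batch 1 and -0.17 in batch 2. The fitted log2 fold change was -0.0013 ± 0.15 (SE), with a 95% interval from -0.34 to 0.34 that still holds the value of Atf4. Ddit3 overlaps Mars1 on the opposite strand, by 74 bases of the canonical transcripts, and Mars1 had 513% of its count, so the level of Ddit3 is uncertain if strand was not used in counting.

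The feedback regulators differed from one another. Ppp1r15b (chr1:133058881-133067521), the constitutive subunit that brings protein phosphatase 1 to eIF2alpha, measured 95.7 and 98.4 CPM in NSD. It measured 115.7 and 115.5 CPM in SD. Both SD libraries were higher, and the within-batch log2 ratios were 0.27 and 0.23. The log2 fold change was 0.25 ± 0.064 (SE), a fold of 1.19, with an adjusted p of 0.0730 by edgeR and 0.00845 with the block. The fold was under the threshold in both, and DESeq2, with a log2 fold change of 0.28 and an adjusted p of 0.00319, called it. Ppp1r15a, the stress-induced partner GADD34, measured 12.4 and 9.81 CPM in NSD and 11.1 and 11.2 CPM in SD. The SD libraries lay between the NSD libraries, and the log2 fold change was 0.011 ± 0.13 (SE) with a 95% interval from -0.28 to 0.30. Trib3, a pseudokinase induced by ATF4 and CHOP, stayed at or near 1 CPM in all 4 libraries (0.68 and 1.03 in NSD, 0.89 and 0.85 in SD).

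**Figure D2:**
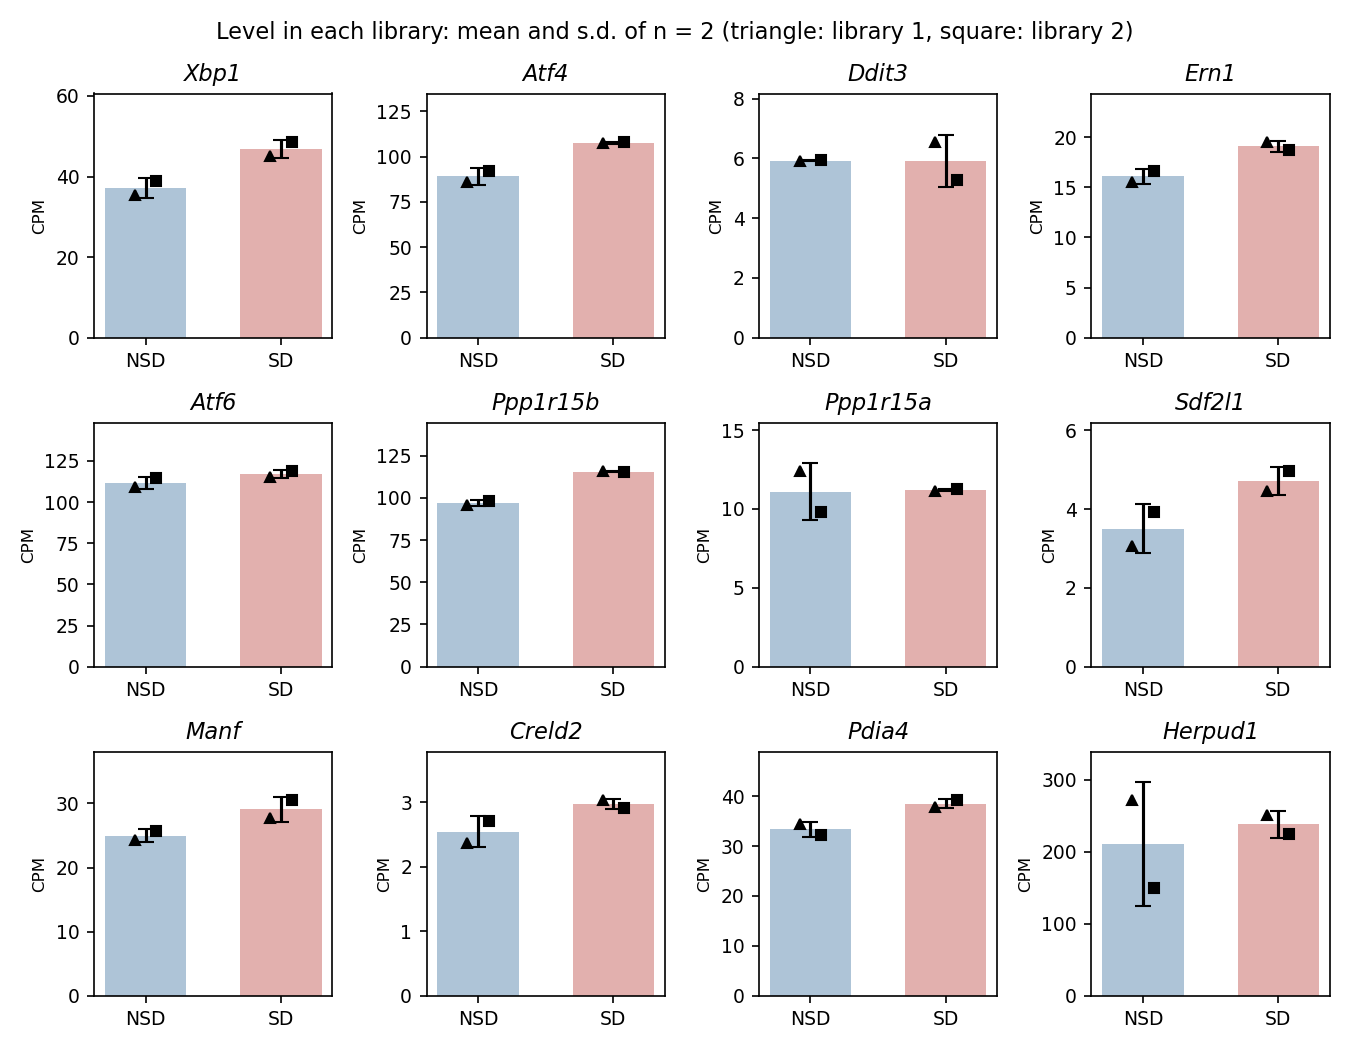
CPM of 12 genes in each library (triangle, library 1; square, library 2), with bars for the group mean and error bars for the SD of n = 2. Xbp1, Atf4, Ern1, Ppp1r15b, Sdf2l1, Manf, Creld2 and Pdia4 have both SD libraries above both NSD libraries, Ddit3 and Ppp1r15a overlap, and the NSD libraries of Herpud1 stand at 271 and 150 CPM.

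Of the chaperones and glycoprotein folding factors, all 7 were above 0 and above 0 within both batches (background 30.8% of all and 36.6% of protein-coding genes), with values from 0.076 to 0.43 and a median log2 fold change of 0.19. In 5 of the 7 (71.4%) both SD libraries were above the NSD libraries, against 22% of all and 26.5% of protein-coding genes, and 0 were called by edgeR, by the block or by DESeq2. Sdf2l1, a partner of BiP and its J proteins, measured 3.07 and 3.94 CPM in NSD and 4.46 and 4.96 CPM in SD. It had the largest fitted value of the 34 genes, a log2 fold change of 0.43 ± 0.18 (SE), with an adjusted p of 0.245 by edgeR and 0.0642 with the block. The batch ratios were 0.54 and 0.33 on the log2 scale.

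Manf, a small secreted ER protein with neurotrophic activity, measured 24.3 and 25.7 CPM in NSD and 27.7 and 30.5 CPM in SD (log2 fold change 0.22 ± 0.082, SE). The groups were separate, the adjusted p was 0.191 by edgeR and 0.0478 with the block, and the fold of 1.16 stayed under the threshold. Manf shares exons on the same strand with Rbm15b, which had 397% of its count, although the canonical transcripts share only 14 bases. Creld2, an ER protein induced by ER stress, measured 2.37 and 2.71 CPM in NSD and 3.03 and 2.91 CPM in SD (log2 fold change 0.23 ± 0.19, SE, edgeR adjusted p 0.604).

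Uggt1, the glucosyltransferase that returns unfolded glycoproteins to the calnexin cycle, measured 60.6 and 61.9 CPM in NSD and 70.3 and 69.6 CPM in SD. The groups were separate with a narrow spread, and the log2 fold change was 0.19 ± 0.063 (SE), with an adjusted p of 0.137 by edgeR, 0.0355 with the block and 0.0462 by DESeq2. Its fold of 1.14 was under the threshold in each. The lectin chaperones of that cycle, Calr and Canx, had log2 fold changes of 0.17 and 0.11, and Hyou1, a large Hsp70 family member of the ER, had 0.076. Calr and Hyou1 overlapped between groups, with library 2 higher than library 1 in each group (Calr 210 and 253 CPM in NSD, 244 and 276 CPM in SD). The value of Calr was 0.070 without NSD 1 and 0.31 without NSD 2.

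All 6 disulfide bond enzymes were above 0 as well (background 54.2% of protein-coding genes), with a median log2 fold change of 0.11 and 0 called. The groups were separate for 2 of the 6 (33.3%), near the 26.5% of protein-coding genes with both SD libraries higher. Pdia4, a disulfide isomerase, measured 34.4 and 32.3 CPM in NSD and 37.9 and 39.2 CPM in SD. Both SD libraries were higher, and the log2 fold change was 0.21 ± 0.072 (SE), with an adjusted p of 0.155 by edgeR and 0.0491 with the block at a fold of 1.16. The other isomerases Pdia6, P4hb and Pdia3 had log2 fold changes of 0.14, 0.092 and 0.036 with overlapping groups. Without NSD 1 these were 0.027, 0.0078 and -0.053, and without NSD 2 they were 0.30, 0.22 and 0.17. Ero1a and Ero1b, the oxidases that recharge the isomerases, had 0.13 and 0.066. Ero1a differed between batches, at 0.30 in batch 1 and -0.030 in batch 2.

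The ERAD genes were spread around 0. Of 9 genes 6 were above 0 (66.7%, against 54.2% of protein-coding genes), with a median log2 fold change of 0.025. The median was 0.074 within batch 1 and -0.058 within batch 2. At an unadjusted p under 0.05 by edgeR there were 0 of 9, against 14.6% of protein-coding and 19.1% of all genes. Sel1l and Syvn1, the scaffold and the ubiquitin ligase of the central ERAD complex, had log2 fold changes of 0.0047 and 0.059. The derlins Derl1 and Derl2, which form part of the channel, had -0.027 and -0.057. Derl2 overlaps Mis12 (103% of its count) and Syvn1 overlaps Mrpl49 (33.9%) on the opposite strand, so their levels are uncertain in the way given for Ddit3. The lectin Os9, which delivers glycoproteins to the complex, had 0.085. The mannosidase-like proteins Edem1, Edem2 and Edem3, which mark glycoproteins for disposal, had 0.025, -0.16 and 0.14. Edem2 was lower in each SD library than in either NSD library and Edem3 was higher, and neither passed a test (edgeR adjusted p 0.562 and 0.335). The value of Edem2 ranged from -0.22 to -0.074 with a library left out. Sec61b, a subunit of the translocon through which proteins enter the ER, had 0.093 ± 0.17 (SE) at 3.11 to 3.55 CPM.

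Herpud1 (chr8:95113066-95122005), which recruits ubiquitinated proteins to the ERAD complex, was singled out after its values were seen. It measured 271 and 150 CPM in NSD and 251 and 225 CPM in SD. The NSD libraries differed by more than the group means (211 and 238 CPM), and SD was lower than NSD in batch 1 (log2 -0.11) and higher in batch 2 (0.59). The log2 fold change was 0.18 ± 0.22 (SE), with an adjusted p of 0.757 by edgeR. Without NSD 1 it was 0.70 (adjusted p 0.0167 by edgeR, passing the test), and without NSD 2 it was -0.19. The direction for Herpud1 thus depended on which NSD library was kept.

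**Figure D3:**
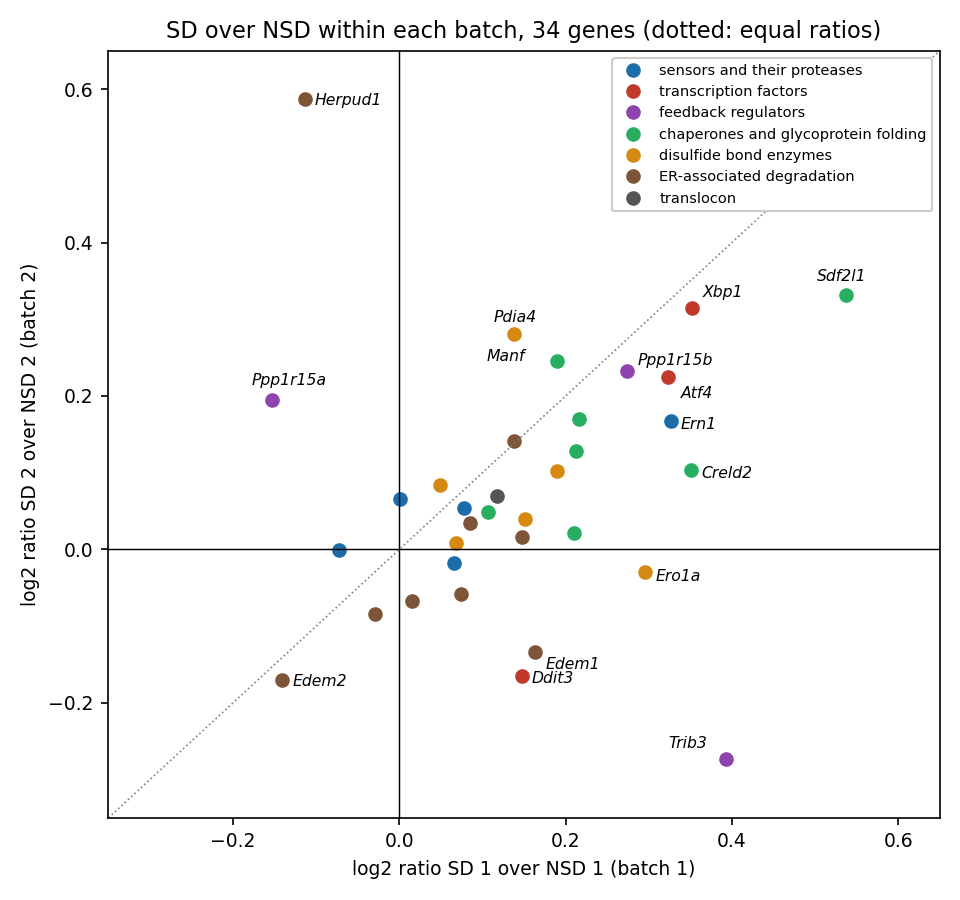
Log2 ratio of SD over NSD in batch 1 (x axis) against that in batch 2 (y axis) for the 34 genes, coloured by role, with equal ratios on the dotted line. Above 0 on both axes lie 22 genes, with Xbp1 at 0.35 and 0.32, whereas Herpud1 (-0.11 and 0.59), Trib3 (0.39 and -0.27) and Ddit3 (0.15 and -0.17) have opposite signs in the batches.

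The 8 sensors, proteases and transcription factors were set beside the 22 folding and degradation genes. Their median log2 fold changes were 0.050 and 0.10 in this order, and 6 of 8 and 19 of 22 were above 0 (background 54.2% of protein-coding genes). Between libraries of a group, the median log2 CPM had a standard deviation of up to 0.078 over the 8 and 0.17 over the 22. Each of these is larger than the median log2 fold change of the same genes. The order turned without SD 2, where the medians were 0.12 over the 8 and 0.099 over the 22. It was kept with any other library left out, at 0.059 and 0.072 without NSD 1 and at 0.081 and 0.18 without NSD 2. Among the 8, Xbp1, Atf4 and Ern1 were at 0.25 to 0.33 and the other 5 between -0.036 and 0.066. Among the 22, the medians were 0.19 for the chaperones, 0.11 for the disulfide enzymes and 0.025 for the ERAD genes. The genes share 4 libraries, so the medians are a description without a test.

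By group means per kilobase of merged exons, Calr was the most abundant of the 34 (60.7 CPM per kilobase in NSD and 68.2 in SD), followed by Herpud1 (54.3 and 61.4), Atf4 (37.5 and 45.4), Canx (26.7 and 28.9) and Sel1l (25.9 and 26.0). In batch 1 Herpud1 was above Calr (70.05 against 55.14 in NSD 1, 64.73 against 63.9 in SD 1). In batch 2 it was below Calr, and in NSD 2 also just below Atf4 (38.65 against 38.91). The lowest were Trib3 (0.25 and 0.26), Ddit3 (1.06 in both) and Creld2 (1.16 and 1.35). By this length Atf4 was among the most abundant and its target Ddit3 among the least in both groups. The order also depended on the length used. With the canonical transcript in its place Xbp1 moved from rank 17 to 8 and Ddit3 from 33 to 24, while Atf4 stayed at rank 3.

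Other genes of the same pathways were given by 4 further lists. Of 89 genes tested from them, 63 were above 0 (70.8%, against 54.2% of protein-coding genes) with a median log2 fold change of 0.042. EdgeR called 0 higher and 1 lower (background 0.952% and 0.540% of protein-coding genes). At an unadjusted p under 0.05 there were 9 of the 89 (10.1%), below the 14.6% of protein-coding genes. The block called 4 higher and 2 lower (background 3.77% and 3.29% of protein-coding genes), and DESeq2 2 higher and 1 lower (3.91% and 1.79%). The median was 0.054 over 19 other ER chaperones and folding enzymes, 0.042 over 26 other ERAD genes, 0.046 over 21 eIF2alpha kinases and ATF4 target genes, and 0.041 over 23 translocon and N-glycosylation genes.

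Ppib, the cyclophilin of the ER, fell in SD. It measured 21.7 and 22.2 CPM in NSD and 16.3 and 16.1 CPM in SD, a log2 fold change of -0.44 ± 0.079 (SE) with an adjusted p of 0.0385 by edgeR, and the block and DESeq2 called it too. The call was lost without a count filter, with filterByExpr, and without NSD 1, NSD 2 or SD 2, while its value stayed between -0.45 and -0.41 with a library left out. Hspa5, which encodes BiP, the chaperone that holds the sensors inactive, measured 125 and 181 CPM in NSD and 167 and 202 CPM in SD. Its groups overlapped but both batch ratios were above 0 (log2 0.41 and 0.16), and its log2 fold change of 0.27 had an adjusted p of 0.430 by edgeR and 0.0154 with the block, which called it higher. DESeq2 did not call it (adjusted p 0.661), and the value was 0.059 without NSD 1 and 0.56 without NSD 2. Hsp90b1, the ER form of Hsp90, overlapped between groups at 136 and 160 CPM in NSD and 145 and 165 CPM in SD (log2 fold change 0.064, edgeR adjusted p 0.811). Its value was -0.023 without NSD 1, -0.021 without SD 2 and 0.19 without NSD 2.

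Dnajc3, which encodes p58IPK, an inhibitor of eIF2alpha kinases and cochaperone of BiP, measured 39.7 and 45.8 CPM in NSD and 52.9 and 51.5 CPM in SD. Its log2 fold change of 0.29 had an adjusted p of 0.0962 by edgeR, 0.0113 with the block and 0.0169 by DESeq2. Stc2, a secreted glycoprotein and ATF4 target, measured 2.97 and 3.48 CPM in NSD and 5.0 and 4.68 CPM in SD, with a log2 fold change of 0.59. It had an adjusted p of 0.0962 by edgeR, 0.0190 with the block and 0.0146 by DESeq2, so that Dnajc3 and Stc2 were called by the latter tests only.

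Mthfd2, a mitochondrial folate enzyme and ATF4 target, measured 7.69 and 6.86 CPM in NSD and 9.57 and 8.90 CPM in SD, and was called by the block only (log2 fold change 0.35, edgeR adjusted p 0.0405 with the block and 0.155 without it). Eif2ak3, which encodes PERK, measured 28.2 and 29.9 CPM in NSD and 29.1 and 30.9 CPM in SD, a log2 fold change of 0.046 with an edgeR adjusted p of 0.825. Eif2ak2, the kinase PKR, differed more between batches than between groups (21.5 and 12.5 CPM in NSD, 16.3 and 9.90 CPM in SD) and was called lower with the block only, at a log2 fold change of -0.36 and an edgeR adjusted p of 0.00932. Without the block its value went from -0.37 with all libraries to 0.098 without NSD 1. Wfs1, an ER membrane protein that also marks CA1 neurons and was picked after its values were seen, measured 390 and 441 CPM in NSD and 279 and 355 CPM in SD. Its log2 fold change of -0.39 had an adjusted p of 0.124 by edgeR and 0.00246 with the block. Without the block edgeR called 0 of the 8 CA1 and excitatory neuron markers (4 at an unadjusted p under 0.05), and with it 4 lower and none higher (background 3.29% of protein-coding genes lower). DESeq2 also called 4 of these 8 lower (background 1.79%), and their median log2 fold change was -0.16. The part of this in the values of the 34 genes was not tested.

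**Figure D4:**
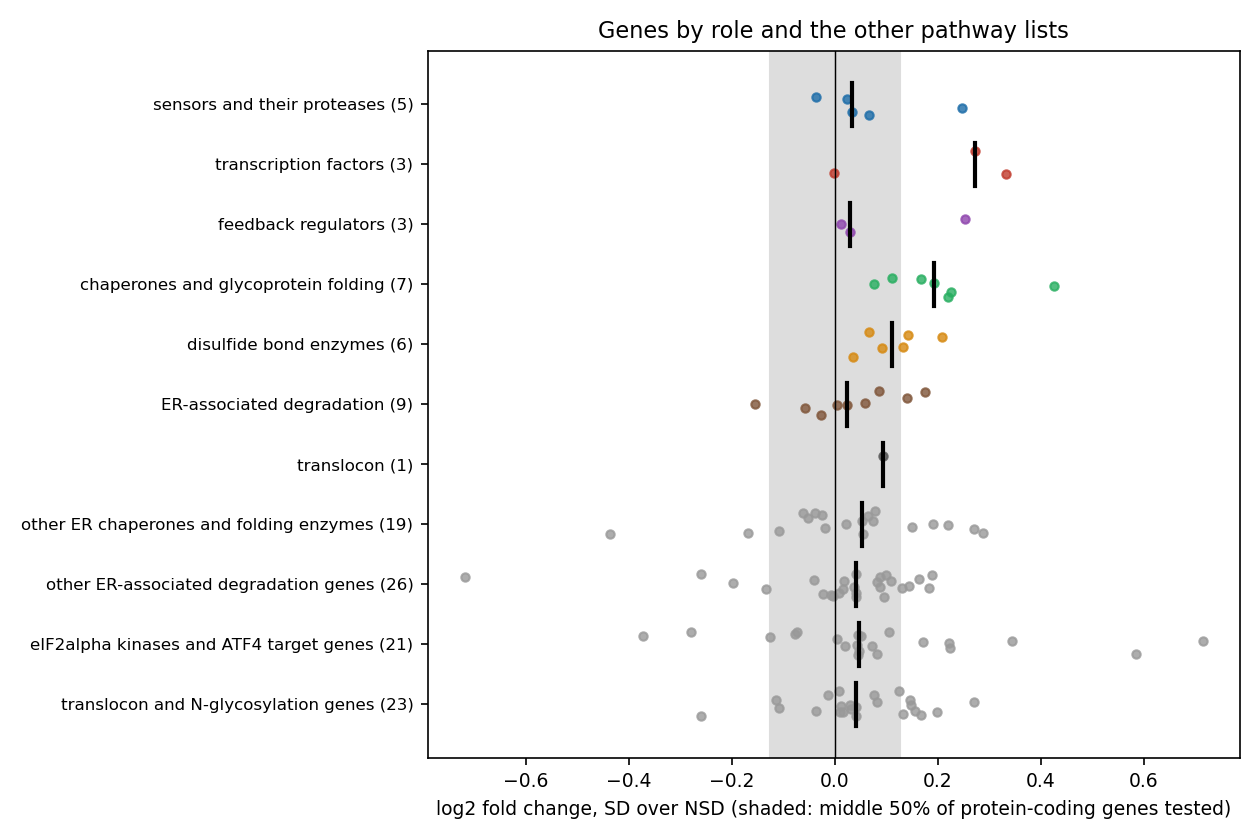
Fitted log2 fold change of SD over NSD for each gene, by role of the 34 genes (coloured) and for the 4 other pathway lists (grey), with the number of genes in brackets, medians as black bars and the middle 50% of protein-coding genes shaded. The band shows the spread of single genes and not of medians. The transcription factors have a median of 0.27, which is the value of Atf4, the chaperones one of 0.19, and the 4 other lists have medians from 0.041 to 0.054.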

How the data were processed

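Ribosome-bound RNA of 2 NSD and 2 SD libraries was sequenced with 150-bp paired reads after ribosomal RNA depletion with a stranded kit. After trimming and alignment to mm39 with STAR, the authors deposited estimated counts per gene from Partek's expectation-maximization model with Ensembl release 110. Whether counting used strand is not given in the sources used here. No gene of the table had a total under 10.

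Counts were rounded, and the 22338 genes above 5 counts in all 4 libraries were fitted with edgeR 4.0.16 in R 4.3.3 (TMM, quasi-likelihood, condition only, Benjamini-Hochberg over all genes), with calls at a fold over 1.2 and an adjusted p below 0.05. The thresholds are those of the authors, who used DESeq2 after a minimum-count filter that may differ from this one. DESeq2 is an alternative here (1.42.0). The fits were also run on counts simulated without a batch effect. That run could not test the block, and its outcome is not reported here. Batch ratios used a prior count of 2. Libraries held 153511673 counts or more, while Trib3 had 112 to 162 counts per library.

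The labels tie each replicate number to a batch, so the numbers pair the libraries. Deviations of libraries with the same number correlated at 0.178 over 22338 genes. Alternatives were this replicate block, DESeq2, its size factors, no filter, filterByExpr, protein-coding genes only and each library left out.

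The genes, lists and tests were chosen with earlier results of these data known. All 34 genes were named, and per-library values were given for those called with or without the block, those with separate groups and a log2 fold change over 0.2 in size, and Ern1, Atf6, Xbp1, Atf4, Ddit3 and Ppp1r15a. Those of Uggt1, Trib3, Calr and Herpud1 were added after their values were seen. From the other lists, genes called with or without the block and Hspa5, Hsp90b1 and Eif2ak3 were named. Protein features were not analysed here. Nars1 and Sars1 of the ATF4 list were not matched in the table. Marker lists of interneurons (775 to 883 CPM in sum), microglia (72.3 to 93.0 CPM), mural cells (51.3 to 68.9 CPM) and plasma and B cells (359 to 570 CPM) were summed as well. The mural cell sums were 68.9 and 65.2 CPM in NSD and 61.2 and 51.3 CPM in SD. Of these 8 genes 7 were below 0 and 1 above, with a median log2 fold change of -0.30.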

Additional observations from a re-analysis of the deposited data

How the results depend on the processing

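Of the 34 genes, 0 were called higher, against 2 with the replicate block, 3 by DESeq2, 1 with DESeq2's size factors in edgeR (Xbp1, adjusted p 0.0486) and 0 to 2 with a library left out (Herpud1 without NSD 1, Xbp1 and Atf4 without NSD 2, and Xbp1 without SD 1). None was called lower in any setting. The genes with values above 0 numbered 25 to 31, a count added after the data were seen, and the median stayed between 0.066 and 0.16. For the other lists the calls were 0 higher and 1 lower, against 4 and 2 with the block, 2 higher with DESeq2, 0 lower without a count filter or with filterByExpr, and 0 to 2 in either direction with a library left out. Over all genes, calls were 172 higher and 520 lower, against 668 and 1891 with the block, 669 and 1294 with DESeq2, 50 and 80 without a filter, 1 and 0 with filterByExpr, 51 and 39 with protein-coding genes only, and 124 to 308 and 78 to 1955 with a library left out. The lowest count of lower calls was without NSD 1 and the highest without SD 1. The cause was not tested.

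Among the 34 genes, signs turned for 12 genes (values given here). Ddit3 was 0.021 with DESeq2, 0.021 with its size factors, 0.026 without a filter and 0.0052 with filterByExpr, Derl1 was 0.0015 without a filter, and Ppp1r15a (-0.011) and Sel1l (-0.015) turned with protein-coding genes only. With a library left out, values ranged from -0.014 to 0.093 for Atf6b, -0.16 to 0.16 for Ddit3, -0.036 to 0.0056 for Derl1, -0.16 to 0.20 for Edem1, -0.19 to 0.70 for Herpud1, -0.0085 to 0.20 for Hyou1, -0.022 to 0.081 for Mbtps2, -0.018 to 0.19 for Os9, -0.053 to 0.17 for Pdia3, -0.15 to 0.22 for Ppp1r15a, -0.070 to 0.12 for Sel1l and -0.21 to 0.37 for Trib3. With no turn of sign, Mbtps1 ranged from -0.059 to -0.0029, Derl2 from -0.064 to -0.036, Edem2 from -0.22 to -0.074, Atf6 from 0.056 to 0.10, Canx from 0.045 to 0.21, Ero1a from 0.057 to 0.22, Ero1b from 0.032 to 0.13, Syvn1 from 0.022 to 0.13 and Sec61b from 0.061 to 0.16. A group left with 1 library was assumed to vary like the other group. Apart from Xbp1 and Atf4, the block changed no call among the 34 genes.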
